A study of Mus musculus with 3 samples.

Results

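The genes described here encode enzymes that build purine and pyrimidine nucleotides from small precursors: Ppat, Gart, Pfas, Paics, Adsl and Atic of the purine trunk, Impdh2 of the branch to GMP, and Cad, Umps and Ctps of the pyrimidine pathway. They were chosen by name, with earlier results of these data known. They were found by matching the gene identifiers of the count files, without their version, to GENCODE mouse symbols. All 10 were found, among 50600 genes in all. RNA was sequenced from T-helper 1 (Th1) cells, the CD4+ T cells that produce interferon gamma, of C57BL/6NJ mice. They were primary cells taken through a differentiation protocol in culture, and the file headers carry 24 hr. There is 1 group with 3 libraries, which the labels number as biological replicates 1, 2 and 3, and no treated, mutant or resting group beside it. Age and sex are not given, and all 3 libraries carry the same donor entry. No label says that animals or cultures were separate, so a p-value between libraries speaks of these samples alone, and their spread may be technical. With 1 group the data give the level of each gene, the order of the levels and the variation between the libraries.

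Purine nucleotides are made by adding atoms step by step to phosphoribosyl pyrophosphate (PRPP) until inosine monophosphate (IMP) is complete, and IMP is then turned into AMP or GMP. Pyrimidines are made the other way round: the ring is closed first and then joined to PRPP to give uridine monophosphate (UMP), from which CTP follows. Resting T cells live largely on salvage of ready-made bases and nucleosides. After activation they are known to raise de novo synthesis, with MYC and mTORC1 among its regulators, to supply RNA and DNA for division.

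Total counts were 3553547, 2945353 and 3369468 read pairs in replicates 1, 2 and 3, and the limit for a gene with no count was 3 counts, or 0.844, 1.02 and 0.890 CPM (counts scaled by the library total). Limits and intervals cover counting error alone, because no molecular identifiers separate copied reads from separate molecules. Replicate 2 stood apart. Genes that share exon bases with a gene on the opposite strand took 77.5% of its counts, against 68.0% and 70.3% in replicates 1 and 3, and genes with no opposite-strand gene within 5000 bases, called isolated here, took 9.52% against 14.1% and 12.9%. The files were counted with strand option 1, which decides which gene of such a pair receives a read pair. The sources used here do not say whether that option matched the library. If it was set against the strand, the counts of an isolated gene would be only a residue of its own mRNA. Those of a gene that shares exon bases could also hold read pairs from the gene on the opposite strand. Among markers of the labelled cells, 7 of 7 T cell genes were at 1 TPM or more in every library (TPM is counts per exon length, scaled to the same sum in each library), and 2 of 3 Th1 genes were. Tbx21, which encodes the Th1 factor T-bet, had 15, 11 and 8 counts, and the interferon gamma gene Ifng had 2, 2 and 1. Of 14 markers of B, CD8, NK, myeloid, erythroid, stromal and epithelial cells, 9 had no count in any library (among them Ms4a1, Ncr1, Klrb1c, Lyz2, Itgam, Hba-a1, Hbb-bs and Col1a1). Those at 1 TPM or more in every library were Cd8b1 of CD8 T cells (30, 20 and 36 counts, 10.4 ± 2.64 TPM), Cd79a of B cells (19, 18 and 22 counts, 7.34 ± 0.65 TPM) and Csf1r of myeloid cells, and the first 2 share no exon bases with an opposite-strand gene. The 14 markers summed to 172 to 182 TPM, of which 154 to 166 TPM was Csf1r, a gene that does share exon bases with one.

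Promoter windows from RefSeq on GRCm38.p6, the build of the count files, were found for 9 of the 10 genes by symbol. Each runs from 250 bases before to 50 bases after the RefSeq start, and positions below count from that start, with negative numbers before it. The 4 printed here are those the later results refer to. Ppat and Paics lie head to head, Umps starts inside an exon of an antisense gene, and the window of Atic holds the motif CACGTG closest to a start. They are given 5′ to 3′ on the strand of the gene, with 1 motif in capitals: CACGTG in Paics and Atic, CTTCCGG in Ppat, and none in Umps, whose window holds none of the motifs searched. The windows are chr5:76951529-76951828 on the minus strand for Ppat, chr5:76951052-76951351 on the plus strand for Paics, chr1:71556906-71557205 on the plus strand for Atic and chr16:33966989-33967288 on the minus strand for Umps.
Ppat: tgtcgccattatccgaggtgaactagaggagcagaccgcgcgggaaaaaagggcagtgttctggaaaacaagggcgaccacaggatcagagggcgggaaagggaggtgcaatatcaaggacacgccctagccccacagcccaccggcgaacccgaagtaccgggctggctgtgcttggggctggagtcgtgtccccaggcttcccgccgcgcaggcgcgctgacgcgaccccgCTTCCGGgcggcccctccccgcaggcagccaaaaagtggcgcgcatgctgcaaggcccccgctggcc
Paics: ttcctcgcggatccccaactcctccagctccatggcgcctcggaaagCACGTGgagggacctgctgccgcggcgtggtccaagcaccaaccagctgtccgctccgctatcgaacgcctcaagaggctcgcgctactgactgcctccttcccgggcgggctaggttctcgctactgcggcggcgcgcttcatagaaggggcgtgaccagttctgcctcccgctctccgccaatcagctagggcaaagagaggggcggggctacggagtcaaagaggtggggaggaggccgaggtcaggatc
Atic: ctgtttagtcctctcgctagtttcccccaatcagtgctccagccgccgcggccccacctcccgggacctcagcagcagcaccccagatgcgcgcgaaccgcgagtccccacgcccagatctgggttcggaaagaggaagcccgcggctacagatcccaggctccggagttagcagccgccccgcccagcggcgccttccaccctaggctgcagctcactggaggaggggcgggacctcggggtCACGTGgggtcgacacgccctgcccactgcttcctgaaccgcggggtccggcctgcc
Umps: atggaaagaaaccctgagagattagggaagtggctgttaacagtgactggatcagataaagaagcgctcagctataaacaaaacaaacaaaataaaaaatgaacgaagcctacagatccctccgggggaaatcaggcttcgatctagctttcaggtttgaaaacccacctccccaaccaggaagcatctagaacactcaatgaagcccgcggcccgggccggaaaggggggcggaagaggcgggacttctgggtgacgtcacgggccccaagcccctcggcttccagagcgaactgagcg

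Both strands of all 32851 windows in the table were searched for 3 motifs. CACGTG, the E-box that MYC with MAX and other basic helix-loop-helix factors are known to bind, was present in the windows of Atic (first base at -7), Impdh2 (-110) and Paics (-203), and in 7.15% of all windows. The match of Impdh2 lies inside the gene as the count files draw it, and that of Atic crosses the drawn start. Both genes are drawn from upstream of the RefSeq start. The match of Paics lies within the span of Ppat. CCAAT, the motif of the factor NF-Y, was present for 4 genes (Atic, Gart, Impdh2 and Paics) and in 37.4% of all windows. CCGGAAG, a form of the motif of ETS factors that reads as the capitals in Ppat on the other strand, was present for Gart (34) and Ppat (-17) and in 8.86% of all windows. These matches describe the letters only, and the data hold no measure of binding. C and G made up 65.7%, 66.7% and 69.7% of the Paics, Ppat and Atic windows and less, 53%, of the Umps window.

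All 10 genes were measured well above the floor. Each had 162 or more counts in every library and was at 1 TPM or more in all 3, a level that 41.2% of 21764 protein-coding genes reached. All 10 also passed the filter on low counts for the test of variation. Together they took 5068, 2685 and 4300 counts, or 0.143%, 0.0912% and 0.128% of the counts of replicates 1, 2 and 3. The median of their mean TPM was 45.6, and it was 9.82 over the 8958 protein-coding genes at 1 TPM or more in every library. The highest mean level, that of Paics, was 6.14 times the lowest, that of Pfas. In bulk RNA, a lower level from fewer expressing cells and one from less RNA per cell cannot be told apart. The order of the 10 levels, with the 3 libraries behind each, is shown in the bar plot of TPM.

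**Figure D1:**
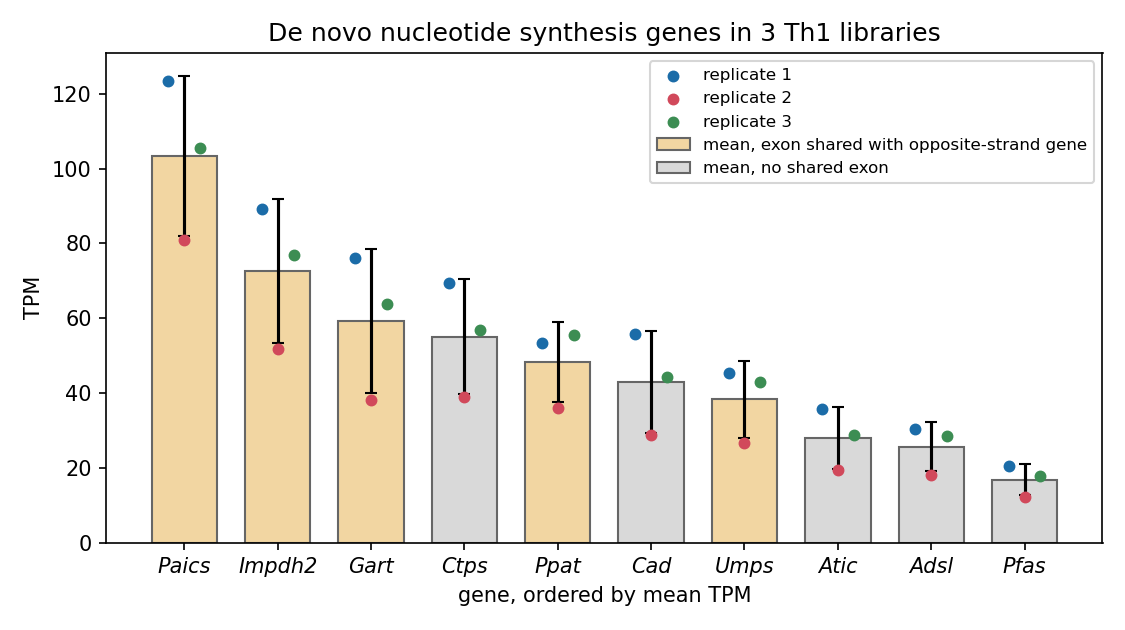
Level of each gene in TPM (vertical axis, from 0) against the 10 genes in order of mean level. Bars are means of 3 Th1 libraries, error bars are 1 SD and points are libraries; orange bars mark the 5 genes that share exon bases with an opposite-strand gene. Means run from 103 TPM for Paics to 16.8 TPM for Pfas, and the point of replicate 2 is the lowest for all 10 genes.

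The purine trunk begins with Ppat, the amidotransferase that commits PRPP to purine synthesis. Ppat (ENSMUSG00000029246, chr5:76913249-76951578, minus strand, mm10) had 448, 279 and 458 counts in replicates 1, 2 and 3, or 53.3, 36.1 and 55.4 TPM, with a mean of 48.3 ± 10.6 TPM (SD, n = 3). Replicates 1 and 3 were close together and replicate 2 was lower, and Ppat was the only one of the 10 genes whose highest CPM was in replicate 3. Gart carries out the second, the third and the fifth steps of the trunk in a single protein. Gart (ENSMUSG00000022962, chr16:91621186-91646952, minus strand) had 577, 267 and 476 counts, or 76.0, 38.3 and 63.8 TPM, with a mean of 59.4 ± 19.3 TPM (SD, n = 3). Its replicate 2 was the furthest below the others of all 10 genes: its CPM was 40.3% under the mean of replicates 1 and 3.

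Pfas, the amidotransferase of the fourth step, was the lowest of the 10 genes per length. Pfas (ENSMUSG00000020899, chr11:68985697-69008460, minus strand) had 309, 170 and 263 counts, or 20.5, 12.3 and 17.7 TPM, with a mean of 16.8 ± 4.19 TPM (SD, n = 3). Paics, which carries the carboxylase of the sixth and the synthetase of the seventh step, was the highest. Paics (ENSMUSG00000029247, chr5:76951307-76967509, plus strand) had 737, 444 and 619 counts, or 124, 80.9 and 106 TPM, with a mean of 103 ± 21.4 TPM (SD, n = 3). The lowest library of Paics was above the highest library of each of Ctps, Ppat, Cad, Umps, Atic, Adsl, Pfas and Gart, and below the highest library of Impdh2.

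Adsl and Atic complete IMP, and Adsl also acts in the branch to AMP. Adsl (ENSMUSG00000022407, chr15:80948490-80970947, plus strand) had 326, 179 and 300 counts, or 30.4, 18.2 and 28.5 TPM, with a mean of 25.7 ± 6.59 TPM (SD, n = 3). Atic (ENSMUSG00000026192, chr1:71557150-71579631, plus strand), whose protein transfers the last formyl group and closes the ring, had 543, 270 and 431 counts. This came to 35.8, 19.3 and 28.9 TPM, with a mean of 28.0 ± 8.25 TPM (SD, n = 3). Atic had more counts than Adsl in every library, but its exon length is 7985 bases against 5635, and the levels of the pair were close per length.

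Impdh2 encodes the isoform of IMP dehydrogenase that is known to rise in dividing lymphocytes, and its enzyme is the target of mycophenolic acid. Impdh2 (ENSMUSG00000062867, chr9:108560286-108565584, plus strand) had 522, 278 and 443 counts, or 89.3, 51.7 and 77.0 TPM, with a mean of 72.7 ± 19.2 TPM (SD, n = 3). The other isoform, Impdh1, was at 23.1 ± 6.51 TPM (SD, n = 3). The processed pseudogene Impdh2-ps, which resembles the Impdh2 mRNA and could take reads from it, had 1, 5 and 5 counts.

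Cad encodes the large protein with the first 3 activities of pyrimidine synthesis. Cad (ENSMUSG00000013629, chr5:31054780-31078479, plus strand) had the most counts of the 10 genes, 868, 411 and 677, over an exon length of 8183 bases. Per length this was 55.8, 28.7 and 44.3 TPM, with a mean of 42.9 ± 13.6 TPM (SD, n = 3), so that the gene ranked 1 by CPM and 6 by TPM. Umps, which makes UMP from orotate, had the lowest mean CPM of the 10.

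Umps (ENSMUSG00000022814, chr16:33954782-33967038, minus strand) had 300, 162 and 280 counts, or 45.3, 26.6 and 43.0 TPM, with a mean of 38.3 ± 10.2 TPM (SD, n = 3). Ctps encodes the CTP synthase that proliferating lymphocytes are known to depend on. Ctps (ENSMUSG00000028633, chr4:120539868-120570276, minus strand) had 438, 225 and 353 counts, or 69.5, 38.8 and 57.0 TPM, with a mean of 55.1 ± 15.4 TPM (SD, n = 3). Its relative Ctps2 was at 3.11 ± 1.38 TPM (SD, n = 3), with 40, 14 and 28 counts.

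Among detected protein-coding genes, 92.7% had a lower mean TPM than Paics and 89.9% a lower one than Impdh2. The share was between 82.2% and 88.1% for Gart, Ctps, Ppat, Cad and Umps, and it was 76.6% for Atic, 75.0% for Adsl and 65.6% for Pfas. Neighbours in the order of levels were compared within libraries by the log2 ratio of their TPM. A pair was taken to differ beyond its spread where the ratio had 1 sign in all 3 libraries and its mean exceeded its SD. An exact sign-flip test of 3 libraries cannot go below 0.25, so no p is given. This held for 6 of 9 neighbouring pairs. Paics was above Impdh2 by a log2 ratio of 0.52 ± 0.11 (SD, n = 3), Impdh2 above Gart by 0.31 ± 0.11, Umps above Atic by 0.46 ± 0.12 and Adsl above Pfas by 0.61 ± 0.07. The ratios of Cad to Umps (0.15 ± 0.13) and of Atic to Adsl (0.11 ± 0.11) passed the rule narrowly. The rule did not hold for 3 pairs: the mean log2 ratio was 0.09 ± 0.10 for Gart to Ctps, 0.18 ± 0.18 for Ctps to Ppat and 0.20 ± 0.23 for Ppat to Cad. Only neighbours were put to the rule, so these 4 genes are not shown to be level. Gart (76.0, 38.3 and 63.8 TPM) and Ctps (69.5, 38.8 and 57.0 TPM) were each above Cad (55.8, 28.7 and 44.3 TPM) in every library. The purine trunk thus spanned the whole order, with Paics at its top and Pfas, Adsl and Atic in the last 3 places, and the 3 pyrimidine genes lay between them.

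Exon bases shared with the opposite strand bear on 5 of the 10 genes, while the open question of the strand option bears on all 10. Paics, Ppat, Gart, Umps and Impdh2 share exon bases with an opposite-strand gene, as 22.1% of protein-coding genes do, and this makes their values uncertain, as a read pair from the common bases goes to one gene or the other by strand. Adsl, Atic and Cad are isolated. Pfas holds the small nuclear RNA gene Gm25819 (4, 10 and 9 counts) within its span on the other strand, and Ctps lies 3206 bases from Slfnl1 (0, 0 and 1 counts). The median of the mean TPM was 45.6 over all 10 genes and 28.0 over the 5 with no shared exon bases. Detected protein-coding genes overall had medians of 14.6 TPM with shared exon bases and 8.09 TPM where isolated.

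Ppat and Paics are known to be transcribed in opposite directions from a common promoter region, and both act in the purine trunk. Their first exons share 272 bases, which is 6.15% of the exon bases of Ppat and 8.67% of those of Paics. Of the counts of the pair, Ppat took 37.8% (exact Clopper-Pearson 95% interval 35.0 to 40.6) in replicate 1, 38.6% (35.0 to 42.2) in replicate 2 and 42.5% (39.6 to 45.5) in replicate 3. The 3 intervals overlap, which does not test whether the shares differ, and Ppat took the smaller part in every library.

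Gart and Umps are each overlapped by an antisense gene with many more counts. Gm15964 (chr16:91611468-91623861, plus strand) shares 676 bases with exons 19 to 22 of the 22 merged exons of Gart, which is 16.9% of the exon bases of Gart. It had 7615, 7426 and 7274 counts, 13.2, 27.8 and 15.3 times those of Gart. Gm15829 (chr16:33966239-33967312, plus strand) shares 213 bases with exon 1 of 6 of Umps, which is 6.11% of its exon bases, and covers the whole Umps window printed above. It had 1948, 2007 and 1979 counts, 6.49, 12.4 and 7.07 times those of Umps. Per length, the mean levels of these antisense genes were 1475 ± 66.0 TPM for Gm15964 and 1240 ± 73.1 TPM for Gm15829 (SD, n = 3), above all 10 synthesis genes. Impdh2 shares only 48 bases, 1.56% of its exon bases, in exon 9 of 9 with the 3′ end of Ndufaf3 (chr9:108565537-108567434, minus strand), which encodes an assembly factor of respiratory complex I. Ndufaf3 had 404, 418 and 426 counts.

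The 3 partners outside the list had nearly level raw counts, while their synthesis genes had their lowest raw counts in replicate 2. After scaling by edgeR's TMM, replicate 2 was above the mean of replicates 1 and 3 by a log2 difference of 0.57 for Gm15964, 0.60 for Gm15829 and 0.58 for Ndufaf3. The adjusted p-values of the chi-square test described next, on edgeR's TMM sizes, were 2.7e-171, 1.3e-53 and 7.7e-11. Whether read pairs moved between the genes of a pair was not tested. The values of each pair are drawn in the plot of counts per kb for members and partners.

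**Figure D2:**
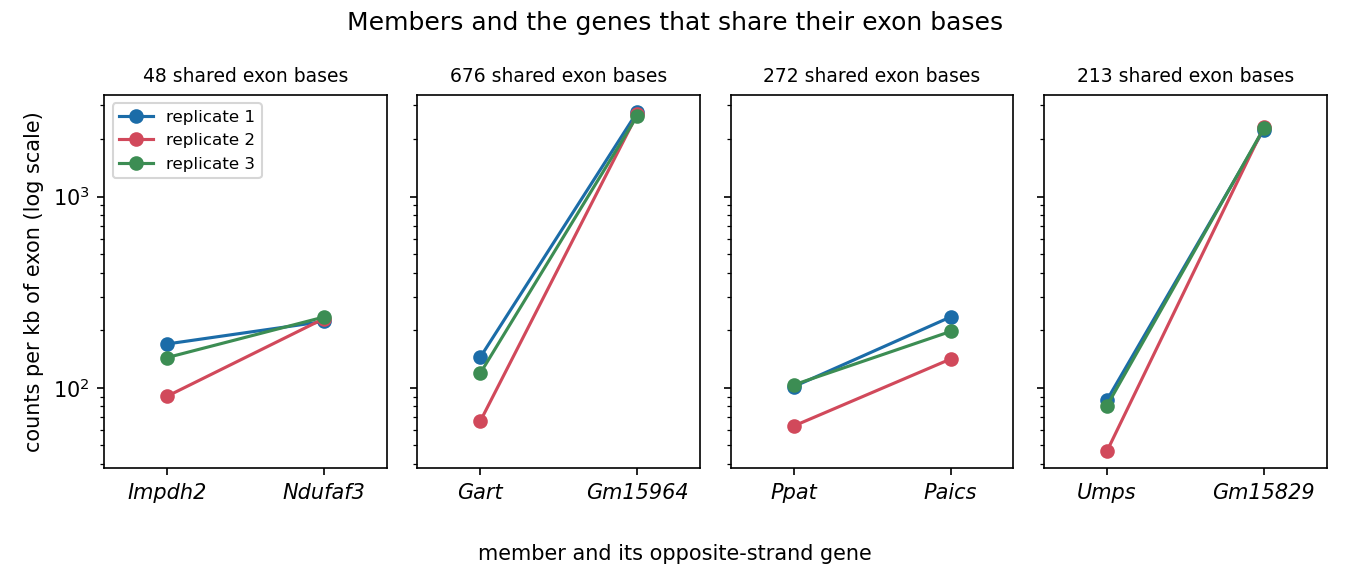
Counts per kb of exon (log axis) of each gene and of the opposite-strand gene that shares its exon bases, with 1 line per Th1 library. Gm15964 and Gm15829 lie far above Gart and Umps in all 3 libraries, and the gap is widest in replicate 2. Counts per kb there were 40.4 times those of Gart for Gm15964 and 49.7 times those of Umps for Gm15829. The lines of Ppat and Paics run nearly parallel.

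Variation between the libraries was tested per gene by a chi-square test against counting error, at library sizes scaled by edgeR's TMM, with Benjamini-Hochberg adjustment over 10216 genes at 0.05. By CPM, which uses total counts, all 10 genes were lowest in replicate 2, as were 64.1% of all genes tested. The CPM in replicate 2 was a median of 32.9% below the mean of replicates 1 and 3 over the 10 genes, with a range from 22.9% for Paics to 40.3% for Gart. Over 2483 isolated genes the median was 33.1% below, close to that of the 10 genes, and 87.3% were lowest in replicate 2. Over all genes tested the median was 23.1% below. Over the 4362 genes that share exon bases with the opposite strand the median ratio of replicate 2 to the others was 1.03, and 40.1% were lowest in replicate 2. The 5 overlapped synthesis genes were lowest in replicate 2 without exception, with values of 22.9% for Paics, 27.7% for Ppat, 32.2% for Impdh2, 34.3% for Umps and 40.3% for Gart. The 7 T cell markers were lowest there too, with summed levels of 796, 422 and 670 TPM. The other cell type markers summed to 172 to 182 TPM, of which the overlapped gene Csf1r alone made up 154, 166 and 160 TPM. Of the T cell markers only Cd3e is overlapped, so the 2 sums also differ in class. The part of cell makeup in the lower values was not tested.

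With TMM sizes, 3 of the 10 genes differed between libraries beyond counting error, at a background of 35.6% of all genes tested. All 3 were lowest in replicate 2, and 11% of all genes were both past the threshold and lowest there. The share of the 10 genes past the threshold was thus near the background. Cad differed with a highest library 1.34 times its lowest and a log2 difference of -0.33 between replicate 2 and the mean of the others (adjusted p = 2.5e-05, chi-square test on edgeR's TMM sizes). Gart differed with a ratio of 1.37 and a log2 difference of -0.40 (adjusted p = 0.00046, same test), and Atic with 1.28 and -0.27 (adjusted p = 0.0133, same test). For the other 7 genes the adjusted p, by the same test, ran from 0.0789 for Ctps to 0.631 for Paics, with log2 differences from -0.27 for Umps to -0.04 for Paics. Replicate 2 was the lowest TMM-scaled library for 9 of the 10 genes, and for Paics replicate 3 was.

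How many genes passed depended on the scaling and on replicate 2. At total counts all 10 passed, at a background of 51.7%. With TMM computed only over genes without shared opposite-strand exon bases, 0 passed, at a background of 33.3%, while 2 had an unadjusted p under 0.05 and DESeq2's size factors gave 3. Under that scaling replicate 2 was lowest for 6 of the 10 genes, and the log2 difference of replicate 2 was -0.22 for Gart, -0.15 for Cad, -0.09 for Atic and 0.14 for Paics. Without replicate 2, 0 of the 10 genes passed, at a background of 9.04% of 10739 genes, and 2 had an unadjusted p under 0.05. Without replicate 1, 2 passed, since Atic no longer did (adjusted p = 0.199, chi-square test on edgeR's TMM sizes). Without replicate 3, 4 passed, with Ctps added (adjusted p = 0.0353, same test). The background is not given here for DESeq2's size factors or without replicate 1 or 3, so those counts have no share beside them. The plot of scaled counts under 3 scalings shows the place of each library under each of them.

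**Figure D3:**
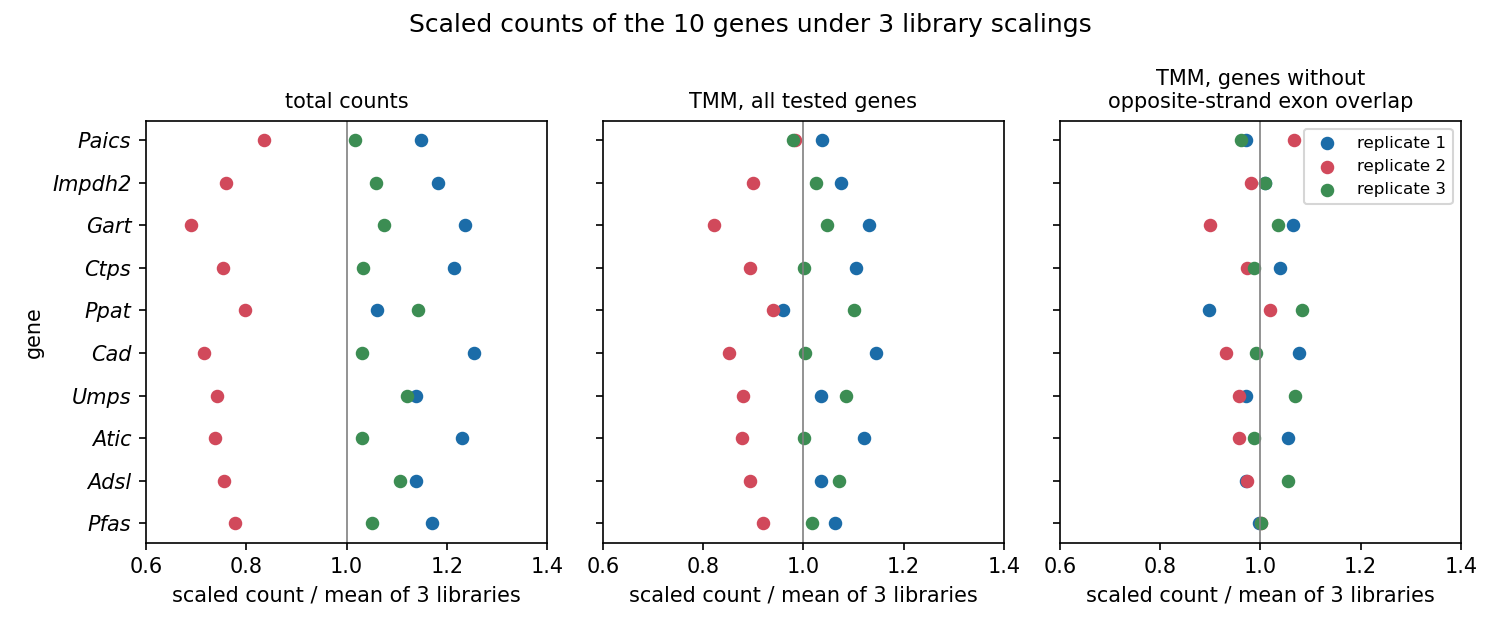
Scaled count of each gene divided by its mean over the 3 Th1 libraries (horizontal axis), for 3 ways of scaling the libraries, with 1 point per library. At total counts replicate 2 is the lowest point for 10 of 10 genes, with TMM over all tested genes for 9, and with TMM over genes without opposite-strand exon overlap for 6.

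The share of each gene in the summed counts of the 10 does not depend on how the libraries are scaled. For 9 of the 10 genes the intervals of the 3 libraries overlapped, which does not test whether the shares differ. Impdh2 made up 10.3%, 10.4% and 10.3% of the counts of the 10 genes in replicates 1, 2 and 3. Cad made up 17.1% (exact Clopper-Pearson 95% interval 16.1 to 18.2), 15.3% (14.0 to 16.7) and 15.7% (14.7 to 16.9). Paics made up 14.5% (13.6 to 15.5), 16.5% (15.1 to 18.0) and 14.4% (13.4 to 15.5), and was the largest share in replicate 2, where Cad was the largest in the others. Ppat went from 8.84% (8.07 to 9.66) in replicate 1 to 10.4% (9.26 to 11.6) and 10.7% (9.74 to 11.6), and its intervals in replicates 1 and 3 did not overlap.

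Other genes of nucleotide metabolism were read from 7 lists with 58 entries, of which 57 were measured. Of these, 40 were at 1 TPM or more in every library and 11 had 3 or fewer counts in each. Genes that feed the pathway were present: Prps1 (26.6 ± 10.2 TPM), Prps2 (19.0 ± 5.33 TPM) and Prpsap2 (12.6 ± 2.56 TPM, all SD, n = 3) led the 4 genes of PRPP synthesis, all 4 detected. Of 6 genes for other steps of synthesis 5 were detected, led by Adss (28.6 ± 10.7 TPM), which turns IMP towards AMP, then Impdh1 and Gmps (14.8 ± 5.88 TPM), which completes GMP. Dhodh, the mitochondrial enzyme between Cad and Umps, was at 5.10 ± 0.97 TPM, below every library of both.

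Of 10 nucleotide kinases 8 were detected, among them Ak3 (55.1 ± 5.29 TPM) and Dtymk (20.4 ± 7.72 TPM, both SD, n = 3). The highest list was deoxynucleotide synthesis and sanitation, with a median of 55.9 TPM over 6 genes, of which 5 were detected and Rrm2b was not. It was led by Rrm2, the small subunit of ribonucleotide reductase, at 98.8 ± 45.8 TPM, Dctpp1 at 87.1 ± 29.2 TPM and Dut at 72.7 ± 22.5 TPM. Salvage had 9 of 12 genes detected, with a median of 11.5 TPM, and was led by Hprt (82.7 ± 27.1 TPM), Aprt (38.7 ± 13.7 TPM) and Uck2 (37.4 ± 10.6 TPM). The mean level of Hprt, which returns hypoxanthine and guanine to the nucleotide pool, lay between those of Paics and Impdh2. Breakdown had 5 of 13 measured genes detected and a median of 0.297 TPM, led by Nt5c (45.6 ± 10.4 TPM), Ampd2 (15.5 ± 4.38 TPM) and Ada (11.6 ± 0.82 TPM). Of 6 nucleoside transporters 4 were detected, led by Slc29a1 (19.9 ± 6.50 TPM), Slc28a2 (3.85 ± 1.69 TPM) and Slc29a3 (3.38 ± 1.27 TPM). The 11 genes with 3 or fewer counts in each library were Adssl1, Ak1, Cmpk2, Upp1, Cda, Gda, Dpyd, Dpys, Upb1, Slc28a1 and Slc28a3. Over the 57 genes of the lists the median of the mean TPM was 8.05, against 45.6 for the 10 synthesis genes and 0.413 for all 21764 protein-coding genes.

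In the same test on edgeR's TMM sizes, 16 of the 40 other genes tested passed, at the background of 35.6%, and 14 of the 16 were lowest in replicate 2. Of all genes tested, 11% both passed and were lowest in replicate 2. By CPM 35 of the 40 were lowest there, as were 64.1% of all genes tested. That share was 87.3% for isolated genes and 40.1% for genes that share exon bases with the opposite strand. Deoxynucleotide genes had 4 of 6 past the threshold, all lowest in replicate 2, with Rrm2 at a log2 difference of -0.70 (adjusted p = 6.6e-18, chi-square test on edgeR's TMM sizes) and 765, 260 and 505 counts. Kinases had 4 of 8, of which Ak3 was the exception: it shares exon bases with an opposite-strand gene, had 291, 312 and 344 counts and was highest in replicate 2 after scaling (adjusted p = 7.2e-09, same test). Salvage had 3 of 9 past the threshold, other steps of synthesis 2 of 5, transporters 2 of 3, PRPP synthesis 1 of 4 and breakdown 0 of 5. Of the 3 most abundant salvage genes Hprt (adjusted p = 0.0163) and Uck2 (adjusted p = 0.0457) passed the same test on edgeR's TMM sizes, and Aprt did not (adjusted p = 0.0596). The plot of replicate 2 against the other libraries by list places the 10 synthesis genes within the range of the other lists.

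**Figure D4:**
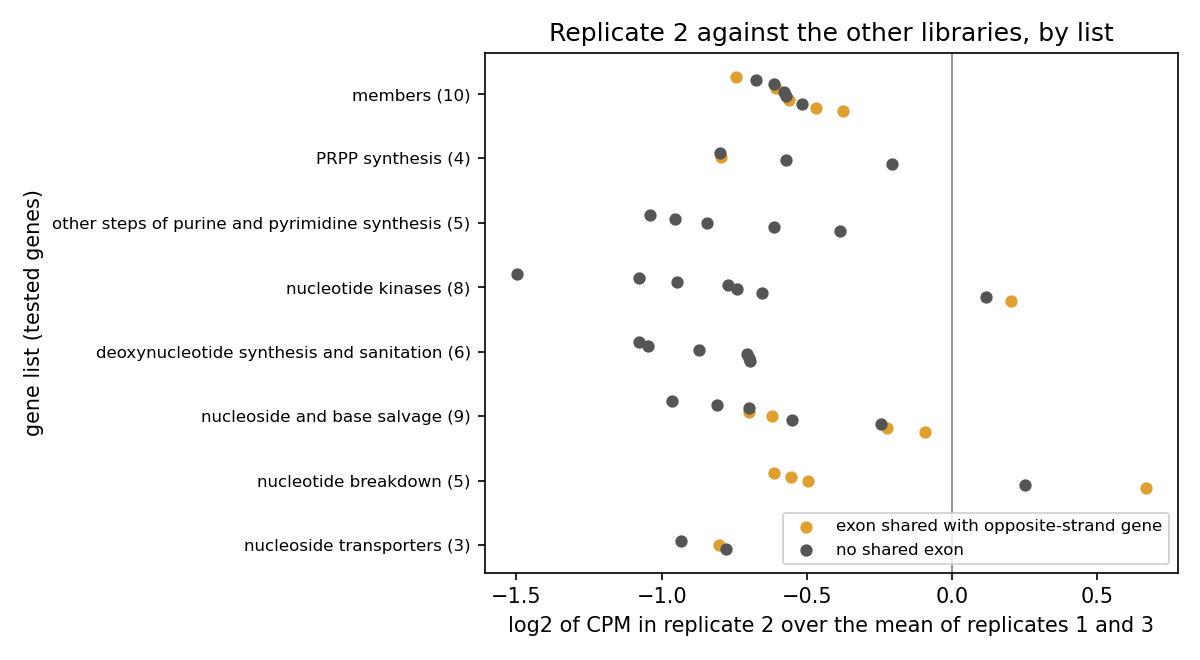
Log2 of the CPM in replicate 2 over the mean of replicates 1 and 3 (horizontal axis), with 1 point per tested gene, for the 10 synthesis genes (members) and 7 other lists. Orange points share exon bases with an opposite-strand gene; the 10 synthesis genes lie between -0.74 and -0.38, all left of 0, as are most points of each other list.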

How the data were processed

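The authors deposited a raw count for each gene and library. Read pairs were counted per the file headers with featureCounts 1.4.6-p4 over the exons of GENCODE release M13, requiring both ends aligned, with strand option 1. The build is mm10 per the labels. The header's alignment name includes star2, with no aligner version given in the sources used here. The labels name the assay total RNA-seq but link a library protocol for polyA RNA. The exon length in the deposited files, together with the counts, gave TPM, FPKM and CPM here. Symbols came from GENCODE release M21 by gene identifier, with 50376 matched and 224 without a symbol. Pnp, on the breakdown list, found no match and is not analysed here. Each gene was classed as overlapped (exon bases shared with an opposite-strand gene), spanned (in the span of such a gene but sharing none of its exons), near (5000 bases or less from one) or isolated.

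With 1 group there is no contrast for edgeR's quasi-likelihood test. Libraries were compared by a chi-square test against Poisson error with 2 degrees of freedom, at edgeR TMM sizes, over genes kept by filterByExpr of edgeR, and p was adjusted by Benjamini-Hochberg (threshold 0.05). The test was run on simulated Poisson counts in which 200 genes were lowered in replicate 2. It recovered 6.5% of them at a change of 1.25-fold, 29.5% at 1.5-fold and 52% at 2-fold. The simulated counts held counting error alone, so they cannot show how the test behaves where libraries vary beyond it. Alternatives were DESeq2 size factors, total counts, TMM over genes without shared opposite-strand exon bases, other filters, and each library left out. The genes, lists and tests were chosen with earlier results of these data known. Named genes are the 10 genes, for each the opposite-strand gene with the most shared exon bases or the nearest within 5000 bases, their pseudogenes by symbol, and of each other list the 3 highest by mean TPM and those with 3 or fewer counts in every library. Some genes of these lists are not reported here by name. Other genes named were chosen after their values were seen. Versions were Python 3.11.15, scipy 1.17.1, pandas 2.3.3, numpy 2.4.6, R 4.3.3, DESeq2 1.42.0 and edgeR 4.0.16.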

Additional observations from a re-analysis of the deposited data

How the results depend on the processing

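The number of the 10 genes that differed between libraries was 3 with TMM and 3 with DESeq2 size factors, 4 over all genes with at least 1 count, 10 at total counts and 0 with TMM over genes without shared opposite-strand exon bases. It ranged from 0 to 4 with 1 library left out, with 0 without replicate 2. Of all genes tested, 35.6% passed with TMM and 51.7% at total counts. The share was 33.3% with TMM over genes without shared exon bases and 9.04% without replicate 2. No such share is given here for the other settings. Of the other genes of nucleotide metabolism 16 differed, 13 with DESeq2 size factors, 27 at total counts, 7 with TMM over genes without shared exon bases, and 2 to 18 with 1 library left out, with 2 without replicate 2 and 7 without replicate 1. The cause was not tested. The alternatives for these other genes, for the order of levels and for the minimum of 50 shared bases, which left 4 of 5 genes overlapped, were chosen after seeing the data. The median level of 45.6 TPM was 25.4 as FPKM and 28.0 over the 5 genes without shared exon bases, since FPKM is on another scale and the genes differ, and it was 41.1 to 52.2 with 1 library left out. All 10 genes stayed detected at 5 TPM, at 1 CPM and with any library left out, and 29 of the 40 other detected genes were at 5 TPM or more. The pairs of neighbours that differed numbered 6, and 5 to 8 with 1 library left out. With only genes without shared exon bases in the total that TPM is scaled to, every level was several times higher, from 84.6 TPM for Pfas to 522.2 TPM for Paics. Ranking by CPM without length changed the place of 9 of the 10 genes. With TMM over genes without shared exon bases, the log2 difference of replicate 2 changed sign for 3 genes that passed under neither scaling: from -0.04 to 0.14 for Paics, from -0.13 to 0.043 for Ppat and from -0.18 to 0.0030 for Pfas. No sign changed for the other 7 genes under the settings run. No paired analysis was possible because there is 1 group. With 162 to 868 counts per gene and library, counting error limits how small a difference between libraries could be detected.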

Other observations

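Of the 40 other genes of nucleotide metabolism that were tested, 5 did not have their lowest CPM in replicate 2, and they are named here after their values were seen. Ak3, a mitochondrial adenylate kinase, had 81.9, 105.9 and 102.1 CPM in replicates 1, 2 and 3 and shares exon bases with an opposite-strand gene, as does Ampd3, an AMP deaminase, with 3.38, 6.45 and 4.75 CPM. Ada, adenosine deaminase, had 12.7, 14.6 and 11.9 CPM, and Nme2, a nucleoside diphosphate kinase, had 5.91, 5.77 and 4.75 CPM, and each lies near an opposite-strand gene. Prpsap2, a regulatory partner of PRPP synthetase, is isolated and had 12.1, 12.6 and 16.9 CPM. Of the 5, Ak3 alone differed between libraries in the chi-square test on edgeR's TMM sizes (adjusted p = 7.2e-09), and the adjusted p of the others ran from 0.0857 to 0.637.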
